A study of Mus musculus with 12 samples.

Results

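Macrophages of IRAK2 knockout mice were compared with wild-type macrophages before any stimulus, over all genes that the array reads. The members are the genes of the difference between the knockout array and the wild-type array at 0 h, each gene read from 1 probeset (the short-oligonucleotide set that the array summarizes into 1 value), the one with the highest mean over 11 arrays. Of 18194 genes with a symbol, 11362 were measured at 0 h, meaning that the higher of both values reached the floor of 3.83 log2, the median of all values on those arrays. A gene was counted as apart when the 2 arrays differed by at least 2-fold, a difference of 1 log2. This held for 52 genes, 0.458% of those measured: 16 read higher in the knockout (0.141%) and 36 lower (0.317%).

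IRAK2 is a kinase-like adaptor that acts downstream of Toll-like receptors. A lipopeptide such as MALP-2 (macrophage-activating lipopeptide) binds TLR2 with TLR6, MyD88 is recruited, and IRAK4, IRAK1 and IRAK2 pass the signal to TRAF6 and on to NF-kB and MAP kinases, while IRAK2 also helps to sustain the translation and stability of inflammatory messages. Peritoneal macrophages drawn out by thioglycollate, an irritant broth, are a standard source of primary macrophages. They are collected with some lymphocytes and other peritoneal cells.

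The study profiled thioglycollate-elicited peritoneal macrophages from wild-type mice, from IRAK2 knockout mice and from mice lacking both IRAK1 and IRAK2 (the double knockout), with 1 Affymetrix array per genotype at each of 4 times. Cells at 0 h had no stimulus, and the others had MALP-2 at 100 ng/ml for 2, 4 or 8 h. Strain, age and sex of the mice, whether wild-type mice were littermates, how many mice were pooled, and whether the 4 times of a genotype came from the same animals were not stated in the labels. Values are log2 intensities of each gene's own probeset, so levels are compared between arrays and not between genes.

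With 1 array per group the 0 h differences have no test and no error, and "higher" and "lower" name the direction on these 2 arrays. The stimulated arrays were not used to choose the 0 h genes, so the same difference there could be tested. The test was limma with genotype and time as factors over the 9 arrays of 2, 4 and 8 h, with p-values adjusted by Benjamini-Hochberg over 10854 genes. It weighs a difference against its spread between times, not between mice. One array, the double knockout without stimulus, was left out of all comparisons: over all probesets its correlation with the other 11 was 0.764 to 0.804, and theirs with each other was at least 0.954.

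The 2 unstimulated arrays were alike over most genes. Over all probesets they correlated at r = 0.993, a correlation across probesets of 1 pair of arrays and not across replicates. The median difference was -0.01 log2, 78.0% of measured genes lay within 0.25 log2, and the SD of the differences over genes was 0.257 log2. At least 1.5-fold apart were 307 genes (2.7%), 130 higher (1.14%) and 177 lower (1.56%), and at least 4-fold apart were 11. The array control probesets for RNA integrity, 5' minus 3', read -3.18 and -3.33 for actin and -3.77 and -3.55 for Gapdh in wild type and knockout.

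Macrophage markers read at similar levels in both samples. Csf1r, the receptor for macrophage colony-stimulating factor, read 12.91 in wild type and 12.96 in the knockout, and Adgre1, which encodes F4/80, read 10.18 and 10.13. The 13 measured macrophage markers had a median difference of 0.05, with 7 higher and 6 lower, within -0.47 and 0.24. Furthest apart were Mertk (8.58 in wild type and 8.11 in the knockout) and Cebpa (11.33 and 10.88). The Y-linked genes Kdm5d (8.49 and 8.37) and Eif2s3y (9.19 and 9.09) were read in both samples, and Xist, the X-inactivation RNA, stood at 4.17 and 4.65.

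**Figure D1:**
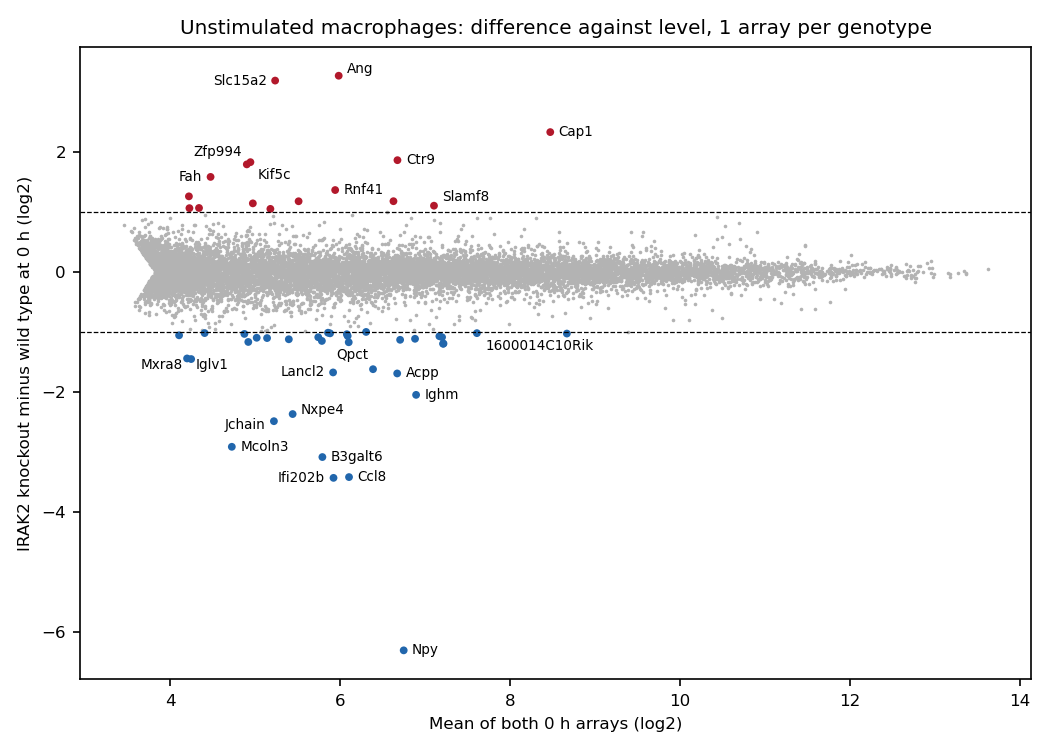
Difference between the IRAK2 knockout and the wild-type array at 0 h (vertical axis, log2) against the mean of both values (horizontal axis, log2), 1 point per measured gene. Dashed lines mark 2-fold; the 16 red genes lie above them and the 36 blue genes below, with Npy at -6.31 far outside the rest.

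The targeted gene read lower in the knockout at every time, and less so without stimulus. Irak2 stood at 6.21 in wild type and 5.63 in the knockout at 0 h, a difference of -0.58, just short of 1.5-fold. With MALP-2 the wild-type values at 2, 4 and 8 h were 6.69, 6.29 and 5.76 and the knockout values 5.51, 4.71 and 4.65. Over those times Irak2 was lower by an estimate of -1.29 (SE 0.19, limma adjusted p = 0.026). The labels do not place the probes relative to the deleted segment, so a signal above the floor does not check the label. Irak1, the related kinase, did not separate the arrays at 0 h (8.59 and 8.51, a difference of -0.08).

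Other genes of the receptor pathway showed small differences without stimulus. Of 27 measured IRAK and TLR signalling genes none was 1.5-fold apart. Only 2.7% of all measured genes were, so a list of this size can hold none. The list's median was -0.02, and after Irak2 the next largest was Tlr2, the receptor for MALP-2, at -0.39. The 18 genes of the NF-kB family and its inhibitors also had a median of -0.02, within -0.49 and 0.39. Of 22 cytokine genes on the array 8 lay under the floor in both samples. Furthest apart were Il1rn, at 8.43 in wild type and 8.92 in the knockout, and Osm, at 5.61 and 5.13. The 14 measured cytokines had a median of 0.19, with 10 higher and 4 lower. None was 1.5-fold apart, against the same 2.7% of all measured genes. Tnf read 5.46 in wild type and 5.48 in the knockout.

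The largest 0 h difference belonged to Npy, the gene of neuropeptide Y, a signalling peptide best known from neurons. Npy stood at 9.91 in wild type at 0 h and at 3.59, under the floor, in the knockout, 79.5-fold apart as read. With MALP-2 wild type read 9.31, 8.90 and 8.58 at 2, 4 and 8 h, and the knockout 3.89, 3.68 and 3.72. All wild-type arrays were high and all knockout arrays lay at the floor, with no overlap. The limma estimate over the stimulated times was -5.17 (SE 0.14, adjusted p = 9.31e-07), the smallest p of all 10854 genes. Because the knockout lies at the floor, the size of this difference is set by the wild-type level.

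The chemokine Ccl8, which encodes MCP-2, an attractant for monocytes and T cells, stood at 7.82 in wild type and 4.40 in the knockout at 0 h. During stimulation wild type read 7.52, 7.34 and 7.001 and the knockout 4.37, 4.70 and 4.63, again without overlap. The difference narrowed from -3.42 at 0 h to -2.37 at 8 h, as the wild-type level declined while the knockout level stayed low, and the limma estimate was -2.72 (SE 0.15, adjusted p = 1.14e-04). Cxcl14, a chemokine expressed in many epithelia, read 7.81 and 6.61 at 0 h. It stayed lower by -1.14, -1.33 and -1.68 at 2, 4 and 8 h (limma estimate -1.38, SE 0.15, adjusted p = 0.0108), and a further probeset of this gene was at least 2-fold lower at 0 h. Of 19 measured chemokines 10 read higher and 9 lower at 0 h, with a median of 0.02. Ccl8 and Cxcl14 alone were 2-fold apart, as were 0.458% of all measured genes. At least 1.5-fold higher were 3 and at least 1.5-fold lower 3, against 1.14% and 1.56% of all measured genes. Cxcl13, the B-cell attractant, read 10.30 and 11.10 at 0 h and was higher by 0.93, 0.81 and 0.52 later, but the limma call missed the threshold (estimate 0.75, SE 0.33, adjusted p = 0.365).

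Ifi202b, an interferon-inducible gene of the p200 family whose proteins bind DNA, was also low from the start. It stood at 7.64 in wild type and 4.21 in the knockout at 0 h, and at 8.37, 7.93 and 7.98 against 4.68, 4.59 and 4.43 with MALP-2. The difference of -3.44 at 0 h kept its size (limma estimate -3.53, SE 0.24, adjusted p = 4.58e-04). Ifi202b is read here from a single probeset that can match related transcripts. Ifi209 of the same family went the other way, by 0.90 at 0 h, and was called higher over the stimulated times (estimate 1.11, SE 0.18, limma adjusted p = 0.0357). The interferon-stimulated genes did not move with Ifi202b. Of 33 measured, 26 read higher and 7 lower at 0 h, with a median of 0.13. Ifit1, an antiviral RNA-binding protein, was highest at 0.79, Bst2 (tetherin) lowest at -0.99, and none of the 33 was called in the limma fit, where 8 were higher and 1 lower at an unadjusted p under 0.05, which 13.6% of all genes tested reached.

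3 further genes were lower by at least 2-fold at every time. B3galt6, a galactosyltransferase of the glycosaminoglycan linker, stood at 7.34 and 4.25 at 0 h and differed by -2.61, -3.15 and -3.70 later (limma estimate -3.15, SE 0.24, adjusted p = 9.68e-04). Its 2 other measured probesets read 0.21 and -0.60 at 0 h, so the size is that of 1 probeset. Lancl2, a LanC-like protein, stood at 6.76 and 5.08 and grew from -1.68 at 0 h to -2.46 at 8 h (estimate -1.97, SE 0.16, limma adjusted p = 0.00149). The uncharacterised 1600014C10Rik was just past 2-fold at 0 h (8.12 and 7.10) and further apart with MALP-2, by -2.22, -2.39 and -2.30. Its limma estimate was -2.30 (SE 0.11, adjusted p = 5.07e-05).

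Smaller differences were called for 6 further genes. Acpp, an acid phosphatase, stood at 7.52 in wild type and 5.83 in the knockout at 0 h, and Glb1, the lysosomal beta-galactosidase, at 7.28 and 6.14. Both were called lower over the stimulated times, Acpp by -1.27 (SE 0.13, limma adjusted p = 0.00779) and Glb1 by -1.04 (SE 0.13, limma adjusted p = 0.0145). Also called lower were Fzd1, a Wnt receptor (-1.03), Timp3, an inhibitor of matrix metalloproteinases (-0.81), Mxra8, a matrix-remodelling cell surface protein (-0.84), and Rps6, a protein of the small ribosomal subunit (-1.03), with limma adjusted p between 0.0219 and 0.0496. Of 17 measured ribosomal protein genes Rps6 alone was 1.5-fold apart at 0 h, when 2.7% of all measured genes were. Rps9 went the other way, by 0.55 at 0 h and 0.74, 0.98 and 0.86 later (limma estimate 0.86, SE 0.13, adjusted p = 0.0263).

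**Figure D2:**
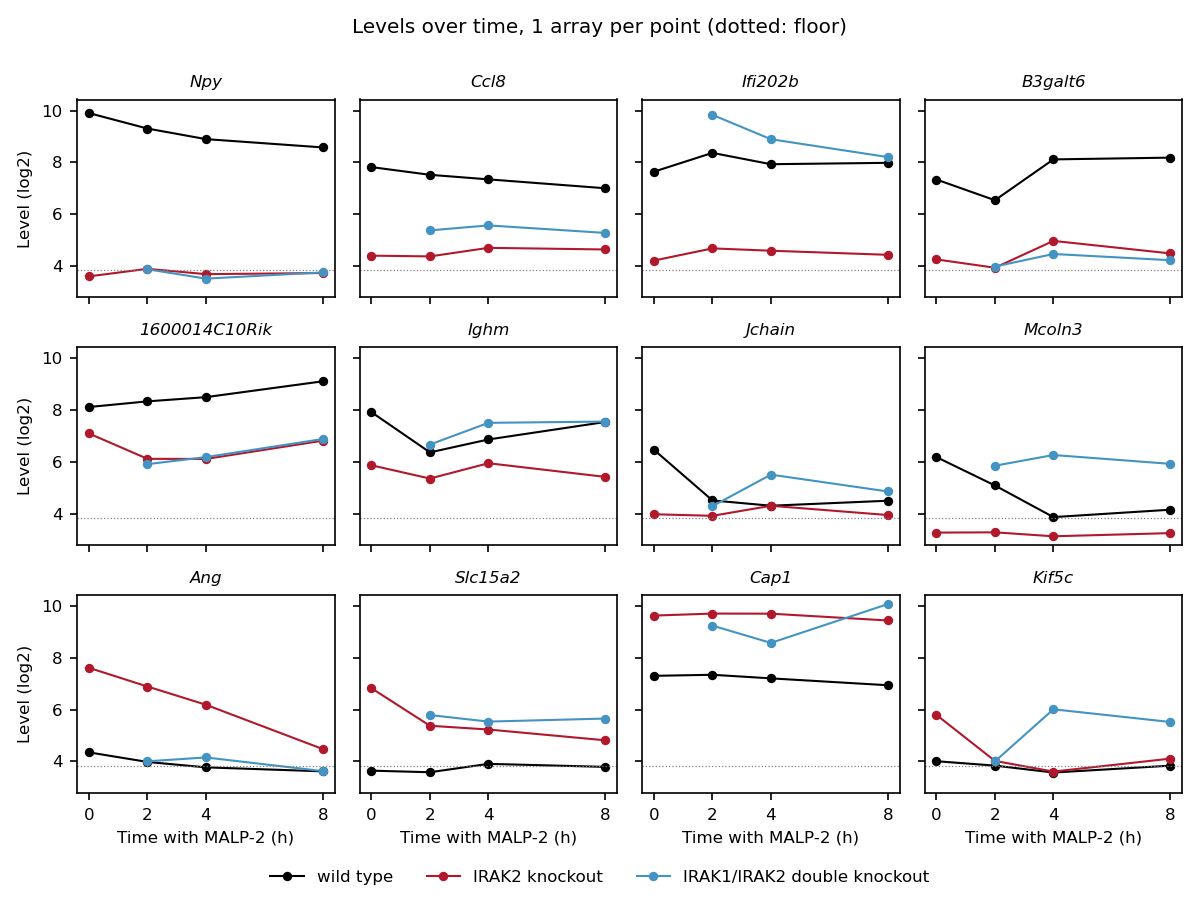
Level (log2) of 12 genes against time with MALP-2 (h), 1 array per point: wild type black, IRAK2 knockout red, double knockout blue (no 0 h array used), floor dotted. Npy, Ccl8, Ifi202b and B3galt6 stay apart at all times, whereas Jchain and Kif5c are 2-fold apart between wild type and IRAK2 knockout at 0 h and not later.

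Among the genes that read higher in the unstimulated knockout, Ang and Slc15a2 had the largest differences, 3.27 and 3.19. Their order is not resolved, since the wild-type value of Slc15a2 lay under the floor. Ang encodes the secreted ribonuclease angiogenin. Ang stood at 4.35 in wild type and 7.62 in the knockout at 0 h, 9.64-fold apart, and the knockout read 6.90, 6.19 and 4.48 at 2, 4 and 8 h while wild type read 3.98, 3.77 and 3.62. The difference shrank from 3.27 to 0.86, and the groups did not overlap (limma estimate 2.07, SE 0.35, adjusted p = 0.0435). Without probesets marked as matching several transcripts, the Ang difference at 0 h was 0.44. Slc15a2, the peptide transporter PEPT2, read 3.64 under the floor in wild type and 6.83 in the knockout. With MALP-2 it read 5.38, 5.23 and 4.82 in the stimulated knockout against 3.58, 3.91 and 3.79 (estimate 1.38, SE 0.16, limma adjusted p = 0.0129). Both genes were highest in the unstimulated knockout among the 8 arrays of these genotypes.

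Cap1, which encodes a cyclase-associated actin regulator, was higher by a nearly constant amount. It stood at 7.31 and 9.64 at 0 h, and at 7.35, 7.21 and 6.95 against 9.72, 9.71 and 9.45 later (limma estimate 2.46, SE 0.30, adjusted p = 0.0145). Its other probeset gave 0.94 at 0 h. Ctr9, a subunit of the PAF1 transcription elongation complex, stood at 5.75 and 7.61 at 0 h and stayed higher by 2.18, 2.24 and 1.49 (estimate 1.97, SE 0.16, limma adjusted p = 0.00114). The Ctr9 value is that of a probeset marked as matching several transcripts, and without such probesets its 0 h difference was -0.001.

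The remaining higher genes that were called span several functions. Slamf8, a SLAM-family receptor of macrophages, read 6.56 and 7.66 at 0 h and 8.02 and 9.54 at 8 h, so its difference grew from 1.10 to 1.53 (limma estimate 1.37, SE 0.16, adjusted p = 0.0137). Fah, the last enzyme of tyrosine breakdown, read 3.69 and 5.27 at 0 h and was called higher by 1.28 (SE 0.17, limma adjusted p = 0.0156). Zfp994, a zinc-finger gene (1.22), Hyi, a hydroxypyruvate isomerase (1.11), Chic1 (0.97), Trim16, a tripartite-motif protein (0.81), and Rnf41, an E3 ubiquitin ligase (0.74), were also called, with limma adjusted p between 0.0145 and 0.0496. Bcat1, which starts the breakdown of branched-chain amino acids, Ppp1r3e, a glycogen-targeting phosphatase subunit, and Gbp2b, an interferon-inducible GTPase, were higher at 0 h by 1.18, 1.14 and 1.06. Their limma adjusted p values were 0.0643, 0.0791 and 0.0537.

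Some genes 2-fold apart at 0 h were not called with MALP-2. Kif5c, a kinesin heavy chain, stood at 4.01 in wild type and 5.80 in the knockout at 0 h but at 3.84, 3.57 and 3.84 against 4.02, 3.61 and 4.11 later, and its limma estimate was 0.16 (adjusted p = 0.893). The wild-type level of Mcoln3, a lysosomal cation channel, was 6.19 at 0 h and 5.09, 3.87 and 4.15 later, while the knockout stayed under the floor from 3.12 to 3.28. Its difference narrowed from -2.92 to -0.91 and was not called (estimate -1.15, limma adjusted p = 0.103). With the knockout under the floor, no change in its level can be read. Mcoln3 and Qpct, a glutaminyl cyclase, were still at least 1.5-fold lower at all 3 times. Nxpe4 (6.63 and 4.26 at 0 h) and Qpct (7.20 and 5.58) followed in the same direction without a call (estimates -0.92 and -1.06, limma adjusted p = 0.201 and 0.0761). Rab3a, a vesicle-trafficking GTPase, and Fhdc1, a formin, read lower at 0 h by -1.11 and -1.04 and differed by at most 0.14 and 0.21 at any later time.

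Genes further apart at 0 h more often kept their direction. Of the 52 genes, 47 (90.4%) had the same sign at 2, 4 and 8 h as at 0 h, where 31.5% of all measured genes did. At least 2-fold the same way at all 3 times were 12 of the 52, 5 higher and 7 lower, against 0.167% (19) of all measured genes. A further 9 were 2-fold at 2 times, 10 at 1 and 21 at none. At least 1.5-fold the same way at all 3 times were 27 of the 52, against 0.915% of all measured genes. By time, 24 were 2-fold the same way at 2 h, 21 at 4 h and 19 at 8 h, when 0.537%, 0.748% and 1.89% of all measured genes were 2-fold apart either way. Of the 41 genes between 2-fold and 4-fold at 0 h 87.8% kept their sign, and of the 11 beyond 4-fold all did. Among the 448 genes from 0.5 to 1 log2 apart the share was 48.7%, and among the 8860 genes under 0.25 it was 29.5%.

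**Figure D3:**
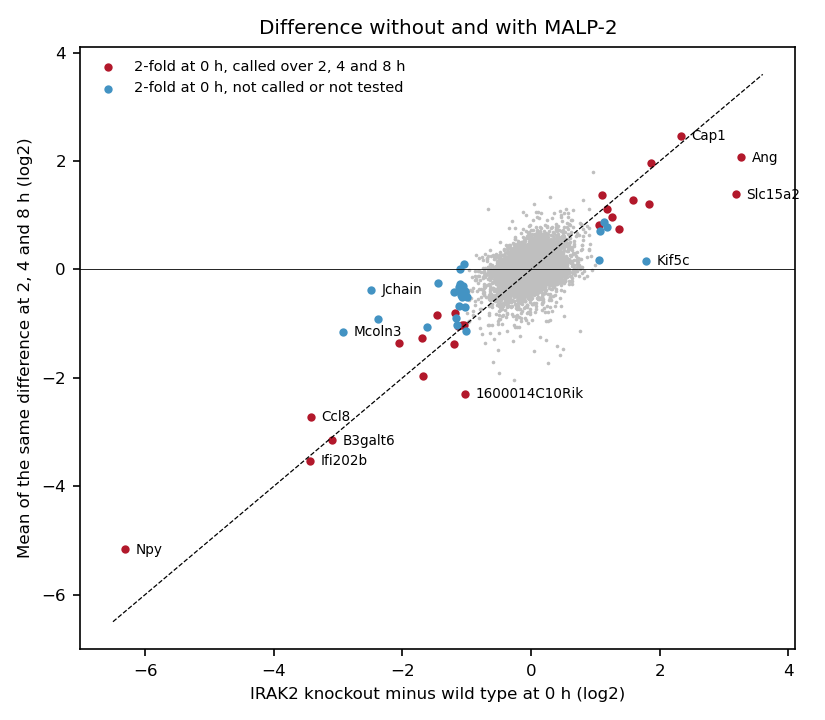
Mean difference between IRAK2 knockout and wild type at 2, 4 and 8 h (vertical axis, log2) against the difference at 0 h (horizontal axis, log2), 1 point per measured gene, with the dashed line of equal values. The 25 red genes were called in the limma fit; Ang, Slc15a2, Kif5c, Jchain and Mcoln3 lie nearer 0 than the line, and 1600014C10Rik lies beyond it.

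The size that remained was a median of 66.2% of the 0 h difference over the 52 genes, 72.1% for the higher and 62.6% for the lower. The genes were chosen for a large 0 h difference, which is also the base of this share, so a share under 100% is favoured by the choice and is a description only. At least 75% remained for 21 genes and under 25% for 7, and the difference was larger with MALP-2 than without for 9. In the limma fit, 49 of the 52 were tested and 25 (51.0%) called the same way, 11 of 16 higher and 14 of 33 lower, against 0.765% (83) of all genes tested (0.415% higher and 0.35% lower). Only Npy, Ifi202b, Ccl8, B3galt6, Lancl2 and 1600014C10Rik were called in each of the 3 fits that left out 1 time. The called 0 h genes dropped to 1 higher and 7 lower without the 2 h arrays, to 0 and 6 without the 4 h arrays and to 4 and 7 without the 8 h arrays. With wild-type and IRAK2 knockout arrays alone, 14 higher and 24 lower 0 h genes were called, and 5.12% of all genes tested.

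Whether the 0 h difference departed from the later ones could be tested only weakly. The term for it in limma over 11 arrays rests on 1 unstimulated knockout array, with the spread taken from the other arrays. In this fit 0 of 10858 genes passed an adjusted p under 0.05 (0.0%), and 167 (1.54%) had an unadjusted p under 0.05. The 6 smallest p values belonged to 1600014C10Rik (1.28, SE 0.22, less negative at 0 h), Slc15a2 (1.80, SE 0.32, more positive at 0 h), AA467197 (-1.78, SE 0.38), Jchain (-2.11, SE 0.45), Fhdc1 (-1.13, SE 0.24) and Ptx3 (1.78, SE 0.39), with adjusted p = 1 for each. Ptx3, a soluble pattern receptor induced by inflammation, read 3.84 and 3.57 at 0 h and was apart only with MALP-2, by -1.37, -2.31 and -2.47. The fit shows neither that the differences changed nor that they stayed the same, and the narrowing described for Ang, Mcoln3 and Jchain is given as values.

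**Figure D4:**
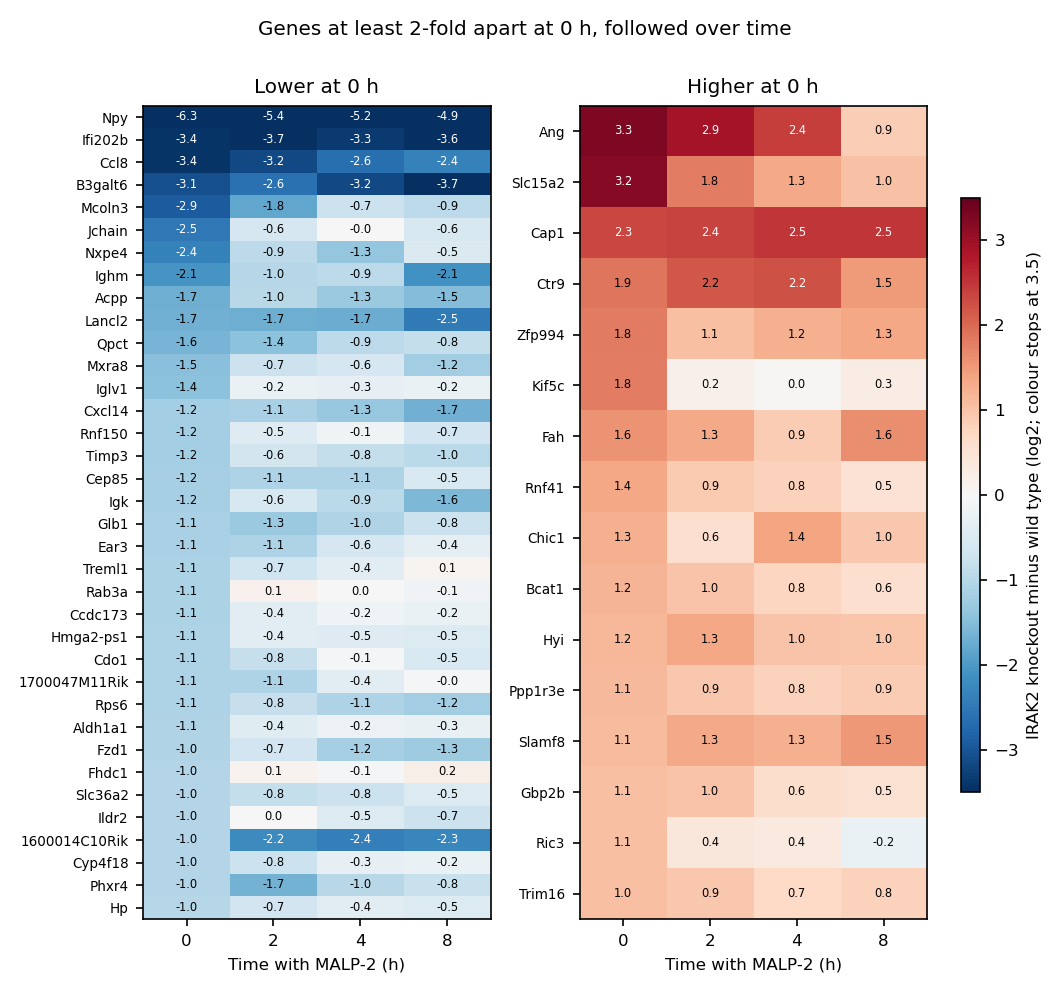
Difference between IRAK2 knockout and wild type (log2, printed in each cell) at 0, 2, 4 and 8 h of MALP-2 for the 36 genes lower and the 16 genes higher at 0 h, ordered by size at 0 h. Colour stops at 3.5; 47 of the 52 genes keep their sign in all columns.

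B-lineage genes had the lowest median of the 35 lists at 0 h, and the lists were chosen with earlier results of these data known. Of 12 measured B-cell markers 11 read lower in the knockout and 1 higher, with a median of -0.56 against -0.01 over all measured genes, and 6 were at least 1.5-fold lower, as were 1.56% of all measured genes. With a floor of 5 log2 in place of 3.83 the list's median was -1.15. The higher of both values decides whether a gene passes, so markers high in wild type alone, such as Jchain, pass this floor. The filter therefore favours a larger median, which is a description only. Jchain, which joins antibody chains in plasma cells, stood at 6.47 in wild type and 3.98 in the knockout at 0 h and then at 4.51, 4.31 and 4.50 against 3.92, 4.30 and 3.95, differing by -0.60 at 2 h, 0.00 at 4 h and -0.55 at 8 h (limma estimate -0.38, adjusted p = 0.49). Ighm, the heavy chain of IgM, stood at 7.92 and 5.87 at 0 h and at 6.37, 6.87 and 7.54 against 5.36, 5.95 and 5.42 later (estimate -1.35, SE 0.22, limma adjusted p = 0.0366), and without probesets marked as matching several transcripts its 0 h difference was -0.96. The light chains Igk and Iglv1 read lower at 0 h by -1.15 and -1.45, and Iglv1 was measured through wild type alone (4.92 against 3.48).

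Pou2af1, a B-cell transcription coactivator, read 5.01 and 4.05 at 0 h and was called lower (estimate -0.95, SE 0.16, limma adjusted p = 0.0435), which with Ighm made 2 of 9 tested markers, against 0.35% of all genes tested. This count is a description only, since the list was chosen with earlier results of these data known. The list's median stayed at -0.56, -0.39 and -0.60 at 2, 4 and 8 h. The defining markers were low in both samples: Cd79a read 4.61 and 4.02, Ms4a1 (CD20) 4.16 and 4.13, and Pax5 lay under the floor. The summed level of the list (log2) ran from 9.83 to 10.69 in the 4 wild-type arrays and from 9.46 to 10.22 in the 4 knockout arrays. In such bulk samples fewer B-lineage cells and less RNA per cell cannot be told apart. Leaving these markers out leaves 32 genes 2-fold lower at 0 h, of which 7 were 2-fold lower again at all 3 times and 13 were called.

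Genes of MHC class II read lower at 0 h, and most other antigen presentation genes differed less. Cd74, the invariant chain of MHC class II, read 10.32 and 9.52 at 0 h, and H2-Ab1, a class II beta chain, 10.89 and 10.11. With H2-Eb1 (-0.74) and H2-Aa (-0.63) these made 4 of 18 measured members at least 1.5-fold lower and none higher, against 1.56% and 1.14% of all measured genes, with 5 members higher, 13 lower and a list median of -0.10. Cd74 stayed lower by -0.57, -0.70 and -0.92, yet no member was called by limma (Cd74 estimate -0.73, SE 0.17, adjusted p = 0.118). Of 19 tested members 5 were lower and 0 higher at an unadjusted limma p under 0.05, which 13.6% of all genes tested reached. B cells also carry MHC class II, and the part of the B-lineage values above in this result was not tested. Medians of the other cell-type lists were smaller in size than that of the B-cell markers. The 6 measured neutrophil markers had a median of -0.28, with 1 higher and 5 lower. The 8 mesothelial and stromal markers had a median of -0.21, and 2 were at least 1.5-fold lower (Wt1, -0.69, and Krt8, -0.61), as were 1.56% of all measured genes. The 7 dendritic-cell markers had a median of -0.12, with 1 higher and 6 lower, and 3 T- and NK-cell markers were measured.

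Of 37 measured cell cycle genes 25 read higher and 12 lower in the knockout, with a median of 0.21. Over all measured genes 5464 read higher and 5890 lower, with a median of -0.01. At 2 h 31 of 34 cell cycle genes read higher, with a median of 0.42 against 0.04 over all measured genes. In the limma fit 12 of 34 were higher and 1 lower at an unadjusted p under 0.05, which 13.6% of all genes tested reached. Rrm2, a ribonucleotide reductase subunit, read 9.10 and 9.75 (0.66) and was called higher over the stimulated times (estimate 0.79, SE 0.12, limma adjusted p = 0.0263), the only one of 34 tested that was called, against 0.415% of all genes tested. The 27 glycolysis and hypoxia response genes had a median of 0.10, and Bnip3, a hypoxia-induced mitophagy receptor, read 0.60 at 0 h and was called (estimate 0.83, SE 0.14, limma adjusted p = 0.0468). Of the Schlafen family, interferon-inducible regulators of immune cells, Slfn8 read 5.66 and 6.62 at 0 h and was called higher (estimate 1.80, SE 0.23, limma adjusted p = 0.0145). Slfn4 differed by 0.90 at 0 h and was not called (limma adjusted p = 0.103). The Schlafen median was 0.01 over 7 genes.

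**Figure D5:**
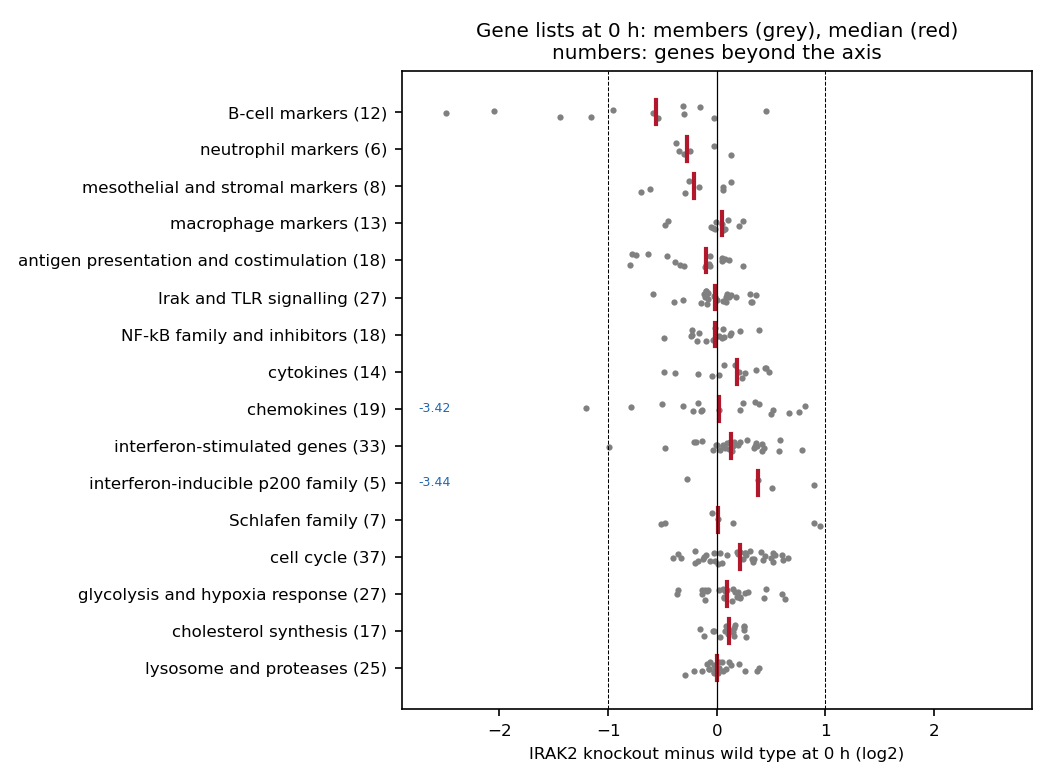
Differences between IRAK2 knockout and wild type at 0 h (horizontal axis, log2) for the measured members of 16 gene lists; grey points are genes, red bars list medians, the count of members is in brackets, and printed numbers are genes beyond the axis. The B-cell markers have a median of -0.56, while the macrophage markers centre on 0.05.

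The genes nearest Irak2 on its chromosome showed small differences at 0 h. Of the 40 nearest genes in the reference order, 20 on each side, 27 were measured at 0 h, with a median of -0.03 and a range from -0.38 to 0.25. None was 1.5-fold apart at 0 h, when 2.7% of all measured genes were. At 2 h 1 was (Rpusd3, 0.64), when 3.43% of all measured genes were. These neighbours do not cover the rest of the chromosome. Among the 51 of the 52 genes that have a position, 4 lie on the same chromosome as Irak2, 0.688% of the 581 measured genes there against 0.458% of all measured genes, and chromosomes 4 (0.873%) and 1 (0.76%) had higher shares. These shares count each gene alike and do not say where the largest differences, such as that of Npy, lie. Linkage of the differing genes to Irak2 was not tested. Within 20 genes of Ifi202b lie Hmga2-ps1 and Slamf8, and within 20 genes of B3galt6 lies Mxra8.

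The double knockout lacks IRAK2 as well, and its values at 2, 4 and 8 h are given side by side, since its comparison shares the wild-type arrays. Its 3 arrays had lower 5' minus 3' control values (Gapdh -5.29, -5.90 and -4.36) than the 8 arrays of the other genotypes (-3.84 to -3.42), and their part in these values was not tested. Npy read 3.87, 3.51 and 3.75 there and B3galt6 3.97, 4.46 and 4.22, at the level of the IRAK2 knockout. Ccl8 read 5.37, 5.56 and 5.27, between the IRAK2 knockout and wild type. Lancl2 (5.30, 4.91 and 4.83) and 1600014C10Rik (5.91, 6.19 and 6.89) were low, and Cap1 (9.25, 8.58 and 10.08) and Ctr9 (8.34, 8.13 and 8.50) high, as in the IRAK2 knockout. Slc15a2 (5.79, 5.54 and 5.66), Fah (5.09, 4.64 and 5.18) and Hyi (5.68, 5.29 and 6.51) also read above wild type in the double knockout. Rps6 (5.53, 5.79 and 5.06) read below wild type. Some other genes lay at or above the wild-type level or close to it. Ifi202b read 9.84, 8.90 and 8.21, Ang 4.01, 4.16 and 3.63, Ighm 6.67, 7.51 and 7.56 and Cxcl14 7.80, 7.36 and 7.43. The further probeset of Cxcl14 differed, at 9.36, 9.32 and 8.08 in the double knockout against 6.70, 6.44 and 6.16 in wild type. Mcoln3 (5.85, 6.27 and 5.93) lay above wild type. For the other 0 h genes that were called, the mean difference of the double knockout from wild type over these times follows. Opposite to the IRAK2 knockout were Glb1 (1.33), Timp3 (0.67), Slamf8 (-0.39) and Trim16 (-0.19). Smaller in the same direction were Mxra8 (-0.52), Acpp (-0.25), Fzd1 (-0.23), Rnf41 (0.17), Zfp994 (0.34) and Chic1 (0.35).

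The size threshold and the choice of probeset set which genes were counted. Just inside 2-fold were Hp, which encodes haptoglobin (-1.004), Phxr4 (-1.02) and Cyp4f18 (-1.02), and just outside were Dapk1, which read 9.89 and 8.89 and missed 2-fold only beyond the decimals given, Mpp7 (-0.99), Bst2 (-0.99) and Tspan8 (0.99). Of the 52 genes 23 have 1 probeset, and 15 have another measured one. For 4 of these 15 another probeset was also 2-fold the same way (1600014C10Rik, Ang, Ccdc173 and Cxcl14), and for 6 every other measured probeset was under 1.5-fold in that direction (Cep85, Ctr9, Rab3a, Rnf41, Timp3 and Trim16). For 10 of the 52 the lower value lay under the floor at 0 h, so that their size is a lower limit. When each gene was read as the mean of all its probesets, 9 genes were 2-fold higher and 21 lower at 0 h. On that reading B3galt6 differed by -1.16, Mcoln3 by -1.54, Lancl2 by -0.48, Ang by 1.87, Slc15a2 by 1.17, Ctr9 by 0.40 and Kif5c by 0.42, each in the same direction as before.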

How the data were processed

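The deposited values are log2 intensities, 1 per probeset and array, made by the authors with RMA, which corrects background, equalizes the arrays' distributions and summarizes probes, per the submitters' processing notes. No version of it is stated there. Equalized distributions hide any global shift between arrays. RNA was extracted with Trizol and labelled with the NuGEN Ovation system, per the labels' protocols. Of 45101 probesets 34958 carry 1 gene symbol, 932 several and 9211 none; 34754 were matched to the reference gene table, and 9012 of 18194 genes have more than 1 probeset.

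Genes, lists and tests were chosen with earlier results of these data known. Named genes are Irak2, Irak1, the 12 furthest each way at 0 h, 2-fold genes called over the stimulated times, the 6 smallest p values of the 0 h term, and the 2 furthest of each of 35 lists; others named with values were chosen after these were seen. Differences are IRAK2 knockout minus wild type. The stimulated fit (limma 3.58.1, R 4.3.3) had 4 residual degrees of freedom, a prior of 4.73 and a prior SD of 0.167 log2. The fit was tested on simulated data. Python 3.11.15 did the rest. Alternatives were the floor, the probeset rule, the fold, the centring of arrays, the arrays fitted and each time left out. With 1 array per group the number of arrays limits the precision.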

Additional observations from a re-analysis of the deposited data

How the results depend on the processing

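No paired analysis was possible because each group is 1 array with no replicate number; time is a factor in the fit itself. With a floor of 5 log2, 4 genes were 2-fold higher at 0 h and called. With the mean of all probesets, 9 genes were 2-fold higher (3 again at all 3 times, 5 called) and 21 lower (4 and 7). Without probesets ending in _x_at or _s_at the fit called 19 genes higher and 25 lower, and Ctr9 read -0.001 at 0 h. At 1.5-fold, 130 genes were higher (22 again at all 3 times) and 177 lower (29). With wild-type and IRAK2 knockout arrays alone, 14 of the higher and 24 of the lower 0 h genes were called, and 295 genes higher and 261 lower over all. Without the 2 h arrays all calls were 1 higher and 10 lower (1 and 7 among 0 h genes), without 4 h 0 and 6 (0 and 6), and without 8 h 5 and 9 (4 and 7); fewer arrays were fitted there. No floor, the highest mean over 12 arrays and arrays centred on medians left all 95 named 0 h differences within 0.236 log2. The causes of the other shifts were not tested. Leaving out the B-cell markers was chosen after seeing the data. Precision is limited by 1 array per group, and small differences near the floor are not resolved.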

Other observations

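Between 1.5-fold and 2-fold at 0 h lay 255 further genes, of which 214 were tested and 17 called in the same direction over 2, 4 and 8 h, where 0.765% of all genes tested were called either way; they are described after their values were seen. Ccr9, a chemokine receptor of lymphocytes and plasmacytoid dendritic cells, read 4.41 in wild type and 3.69 in the knockout at 0 h and differed by -1.30, -1.29 and -1.46 later (limma adjusted p = 0.01). Tnfrsf13c, the B-cell survival receptor for BAFF, read 5.62 and 4.65 and stayed lower (estimate -0.97, SE 0.17, limma adjusted p = 0.0458), as did the light-chain segment Igkv8-30 (estimate -0.76, SE 0.12, limma adjusted p = 0.0357). Malt1, a paracaspase of NF-kB signalling, read 7.91 and 7.26 at 0 h and was lower by -0.65, -0.91 and -0.96 (limma adjusted p = 0.0435). Slc7a2, an arginine transporter, widened from -0.64 at 0 h to -1.41 at 8 h (limma adjusted p = 0.0221). S100a4, a calcium-binding protein of motile cells, was higher by 0.62 at 0 h and 0.68, 0.76 and 0.61 later (limma adjusted p = 0.0435).

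Of the 83 genes that the stimulated fit called, 42 were already at least 1.5-fold apart at 0 h and 17 differed by under 0.25 log2 in the called direction, 4 of these with the opposite sign.

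Among 3899 measured probesets without a single gene symbol, 7 read at least 2-fold higher and 26 lower in the unstimulated knockout. Of all measured genes 0.141% and 0.317% did. At all 3 stimulated times 1 and 5 of these probesets did so again. The largest of these, chosen for its size, read 8.11 in wild type and 3.27 in the knockout at 0 h and differed by -5.20, -5.35 and -5.16 later. In the double knockout this probeset read 10.33, 9.69 and 9.11 at 2, 4 and 8 h, above wild type, as Ifi202b did. Whether both read the same transcript was not tested. The probeset next in size read 8.05 and 5.63 and differed by -2.70, -3.04 and -2.40.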
